A study of Mus musculus with 12 samples.

Results

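Mediator complex subunits were followed in polyadenylated RNA from induced MEL cells, a transformed line of mouse red cell precursors in which chemical induction starts maturation. The genes were chosen by name, as those with a Med symbol followed by a number plus Cdk8, Cdk19 and Ccnc, with 30 or more reads over all libraries. Of 33 such genes 31 passed, out of 14178 genes with as many reads and 37991 genes in the files. Med10, a middle subunit, had 12 reads in all and Med12l, a paralog of Med12, had 25, so both fell short. Whether Med10 mRNA was scarce or its reads were lost in alignment or annotation cannot be told from the counts. Of the members, the fewest reads, 1264, belonged to Med18. The 12 libraries fell into 4 groups of 3, all made from induced cells. The KD group carried a knockdown of LDB1. The delta45 group was knockdown cells expressing the construct LDB1Δ4/5, and the FL group was knockdown cells expressing full-length LDB1. The control group was wild-type MEL cells without the knockdown. The knockdown is thus common to KD, delta45 and FL. The labels do not say how the knockdown was made, whether the derived lines were single clones, or whether replicates were grown apart. Each p-value therefore rests on the variation among these libraries, which can be technical.

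Mediator is a large coactivator complex that carries signals from enhancer-bound transcription factors to RNA polymerase II. Its head and middle modules contact the polymerase, its tail module is the main contact for activators, and MED14 is the backbone that holds the modules together. A separable kinase module, made of CDK8 or CDK19 with cyclin C, MED12 and MED13, binds the core reversibly and competes with the polymerase for it. In red cell precursors MED1 is known as a contact of GATA1, the factor that LDB1 joins in a complex with TAL1 and LMO2.

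Each library held between 8783970 and 20464959 reads in genes. Levels are in CPM, reads relative to the library's total after TMM scaling, and group values are means ± SD (n = 3). Log2 changes carry their SE and were tested by edgeR's quasi-likelihood method, where a gene counted as called if its Benjamini-Hochberg adjusted p over 12837 genes was below 0.05. Ldb1, the targeted gene, averaged 130 CPM in KD, 765 CPM in delta45, 3440 CPM in FL and 718 CPM in control, so the constructs were compared at unequal Ldb1 mRNA. Of 12 erythroid markers listed 11 were matched and all 11 had reads in every group. Their summed level spanned 2720 to 4850 CPM in KD, 4710 to 5020 CPM in delta45, 32500 to 39500 CPM in FL and 11800 to 12700 CPM in control. Single genes did not all follow the sum. Tfrc alone had 1910 to 2490 CPM in delta45, and Klf1 had 140 to 318 CPM in KD against 194 to 224 CPM in control. Summed markers of other types moved between groups as well. The 7 megakaryocyte genes summed to 811 to 854 CPM in KD, 181 to 200 CPM in delta45, 2840 to 2940 CPM in FL and 849 to 942 CPM in control. The similar sums of KD and control hide opposite differences. Pf4 had 454 to 526 CPM in KD against 64.6 to 78.1 CPM in control. Itga2b had 252 to 279 CPM in KD against 720 to 829 CPM in control. The 6 lymphoid genes summed to 32.9 to 45.3 CPM in KD, 5.56 to 6.09 CPM in delta45, 6.25 to 9.53 CPM in FL and 13.6 to 15.8 CPM in control. Over all libraries the 6 myeloid genes reached at most 10.7 CPM and the 6 stromal and endothelial genes 8.32 CPM. Il7r and Col1a2 had no reads in any group, and Csf3r none in KD, delta45 and FL. In bulk RNA, fewer cells of a type and less RNA per cell cannot be told apart, and the part of maturation or of other cell types in the results was not tested. The KD libraries stood apart from each other, with Pearson correlations of log2 CPM of 0.9551 to 0.9773, against 0.9844 or more in the other groups.

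Members of the complex moved in different directions. KD against control compares knockdown cells with wild-type cells, so lowered LDB1 and other differences between the lines cannot be told apart. The same limit applies to the other comparisons below. In KD against control 11 members were higher, 3 were lower and 17 were not called. That is 45.2% called, against 49.7% of all tested genes (25.6% higher and 24.1% lower). The median log2 change of the members was 0.23, against 0.02 over all genes. The higher ones were 3 head, 2 middle, 3 tail and 3 border subunits, led by Med18 and Med11, and the lower ones were Cdk8, Med14 and Med20. Without KD replicate 3, 6 members were lower, and 47.8% of all genes were called.

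FL against KD asks what full-length LDB1 changed in knockdown cells. In it 8 members were higher and 8 lower, 51.6% called against 58.0% of all genes (26.3% higher and 31.7% lower), with a median log2 change of 0.06 against -0.06 over all genes. Med13, Med12 and Med1 led the higher members, and Med30, Med11 and Med18 the lower ones. With library totals in place of TMM, 4 were higher and 13 lower, where 59.8% of all genes were called. The median of all genes shifted by -0.27 on the log2 scale. Without KD replicate 1, 13 members were higher, and 60.8% of all genes were called. The delta45 against KD comparison asks the same of the altered construct, and gave 7 higher and 8 lower members, 48.4% called against 59.9% of all genes (29.2% higher and 30.7% lower). The median log2 change was 0.05 against -0.01 over all genes. Med12, Med14, Ccnc and Med13 were highest there, and Med28 and Med6 lowest. Both comparisons share the KD libraries.

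FL against delta45 asks where the constructs differ. In the fit of all 12 libraries, 2 members were higher and 6 lower, or 25.8%. Of all genes 52.8% were called (25.8% higher and 27.0% lower), and the median log2 change was -0.02 against -0.01. Med20 and Med19 were the higher ones, and Med14, Med18, Med30, Med23, Med24 and Med27 the lower ones. With RLE scaling 4 were higher and 6 lower, where 53% of all genes were called. With library totals 0 were higher and 13 lower, where 55.9% of all genes were called and the all-gene median moved by -0.28. The count of higher members was 6, 5 and 7 when KD replicate 1, 2 and 3 were left out in turn, and 5 without control replicate 3. In those fits 57.7, 53, 57.3 and 53.6% of all genes were called, in that order. Without KD replicate 3, 8 members were lower, and 57.3% of all genes were called. Fitted on the FL and delta45 libraries alone, 7 members were higher and 10 lower, where 68.7% of all genes were called. The number of members called thus depended on which libraries shared the fit. Against control, FL had 9 members higher and 5 lower (59.3% of all genes called, 28.1% higher and 31.2% lower). With library totals 6 were higher and 8 lower, where 58.2% of all genes were called and their median moved by -0.22. The delta45 group had 11 members higher and 6 lower than control (64.4% of all genes called, 31.9% higher and 32.5% lower). The lower ones numbered 3 without delta45 replicate 1 or without control replicate 2, where 58.1% and 57.8% of all genes were called. Cdk19, Med8, Med21 and Med31 were called in none of the 6 comparisons.

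**Figure D1:**
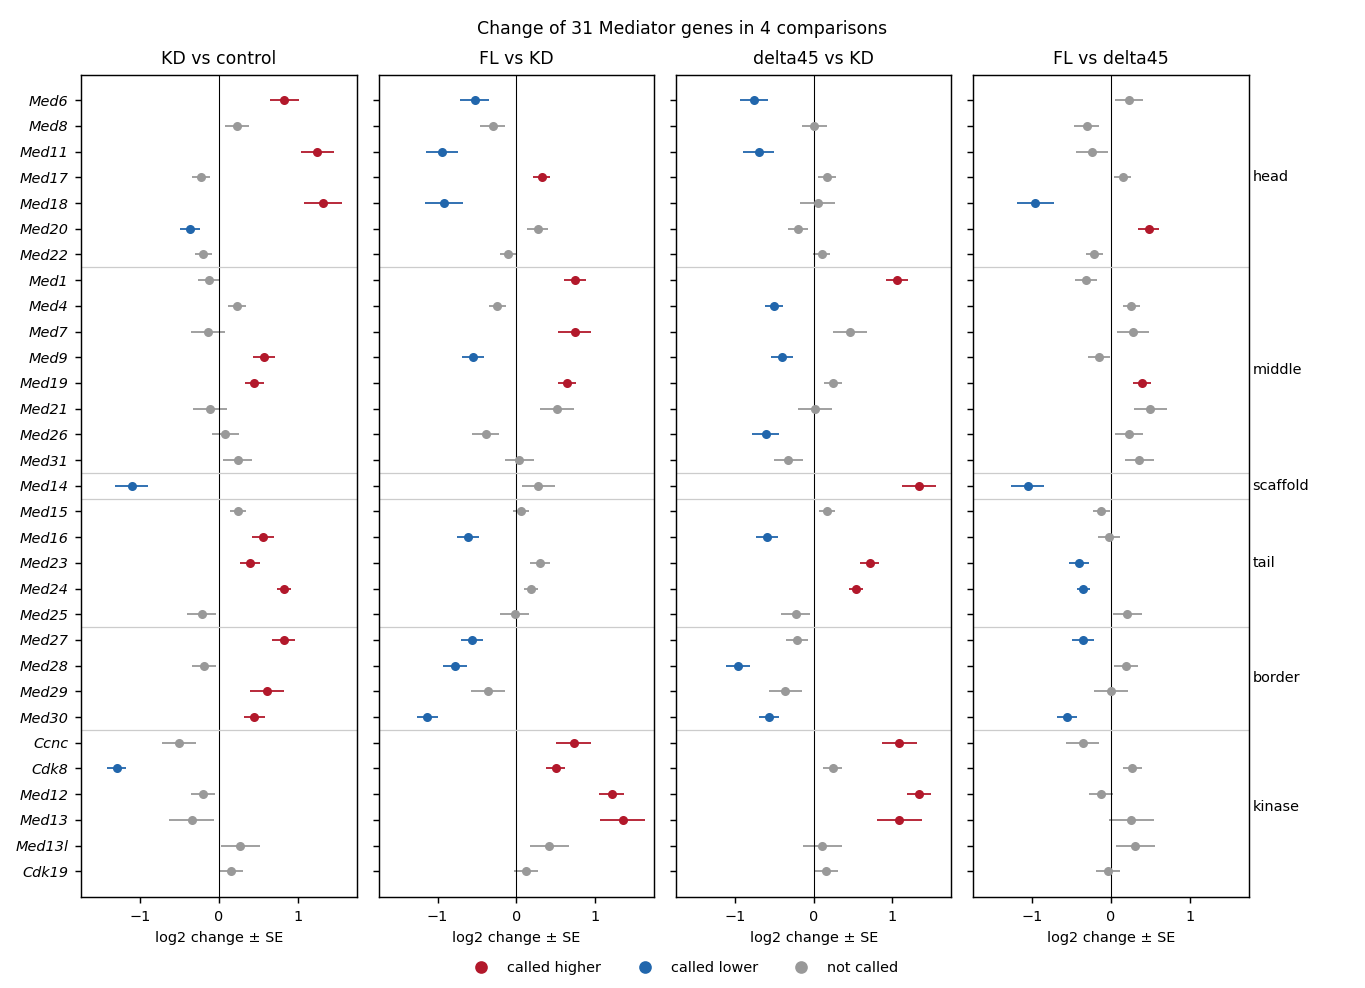
Log2 change ± SE (x axis) of each of the 31 Mediator genes (y axis, grouped by module) in 4 comparisons. Red points were called higher, blue points lower and grey points not called by edgeR at an adjusted p under 0.05. Cdk8 and Med14 lie at the left in KD against control, and Med12 and Med13 at the right in FL and delta45 against KD.

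The kinase module held the largest decrease. Cdk8, the cyclin-dependent kinase of the module, had 74.81, 81.2 and 57.7 CPM in KD, 84.41, 80.06 and 87.26 CPM in delta45 and 94.8, 105 and 103.2 CPM in FL, against 172, 169.7 and 182.9 CPM in control. Every control library lay above every library of the derived lines. KD was 2.46-fold lower than control (log2 change -1.30 ± 0.121, edgeR adjusted p = 3.12e-06). In delta45 it was 2.08-fold lower than control (log2 change -1.06 ± 0.119, edgeR adjusted p = 5.98e-06) and in FL 1.73-fold lower (log2 change -0.79 ± 0.119, edgeR adjusted p = 8.63e-05), comparisons that share the control libraries. FL was 1.42-fold above KD (log2 change 0.50 ± 0.12, edgeR adjusted p = 0.0029), a call that ended with library totals in place of TMM (log2 change 0.23, edgeR adjusted p = 0.149). For Cdk8 the delta45 change from KD was 0.24 ± 0.119 (edgeR adjusted p = 0.102) and FL against delta45 gave 0.27 ± 0.119 (edgeR adjusted p = 0.0748). Neither passed the threshold.

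The paralog Cdk19, which takes the place of CDK8 in some Mediator complexes, had 112.5, 93.57 and 84.14 CPM in KD, 117.7, 103.6 and 102.3 CPM in delta45 and 120, 96.84 and 98.1 CPM in FL, against 75.66, 79.44 and 105.8 CPM in control. Control replicate 3 lay within the range of each derived line, and the other control libraries below all of them. No comparison of Cdk19 was called, the log2 change being 0.15 ± 0.151 in KD against control (edgeR adjusted p = 0.423), 0.31 ± 0.151 in delta45 against control (edgeR adjusted p = 0.0887) and 0.27 ± 0.151 in FL against control (edgeR adjusted p = 0.142). As a share of the reads of both kinases, Cdk19 made up 60.1, 53.5 and 59.3% in KD, 58.2, 56.4 and 54% in delta45 and 55.9, 48 and 48.7% in FL, against 30.5, 31.9 and 36.7% in control. The control libraries lay below all others. Exact 95% binomial intervals, which cover counting error only, ran from 51.1 to 56% for KD replicate 2 and from 35.3 to 38% for control replicate 3. Such a share of reads compares 1 gene pair between libraries and is not a ratio of molecules, because the transcripts differ in length. With 3 libraries against 3, an exact two-sided permutation test cannot give a p under 0.1, and none was run.

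**Figure D2:**
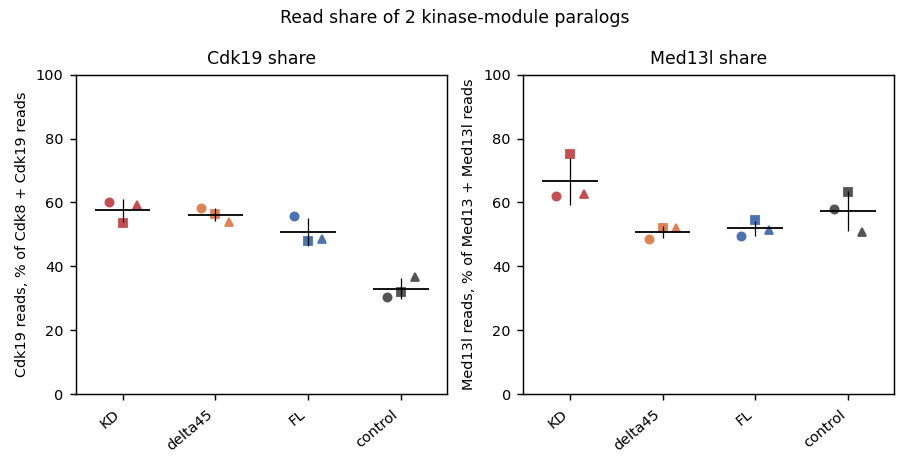
Reads of Cdk19 as a percentage of Cdk8 plus Cdk19 reads (left) and of Med13l as a percentage of Med13 plus Med13l reads (right) in each library of the KD, delta45, FL and control groups. Symbols mark replicates 1 (circle), 2 (square) and 3 (triangle), lines the mean and bars the SD. The control libraries lie between 30.5 and 36.7% for Cdk19, and the libraries of the derived lines between 48 and 60.1%.

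Med12 and Med13 were higher with either construct than in KD. Med12, the subunit that activates CDK8, had 126, 133.1 and 87.03 CPM in KD, 296.4, 295.7 and 283.2 CPM in delta45, 305.5, 256.5 and 239.3 CPM in FL, and 149.9, 130.9 and 119.2 CPM in control. The KD and control libraries overlapped, and every delta45 and FL library lay above both. Med12 was 2.53-fold higher in delta45 than in KD (log2 change 1.34 ± 0.155, edgeR adjusted p = 1.42e-05) and 2.31-fold higher in FL than in KD (log2 change 1.21 ± 0.155, edgeR adjusted p = 2.58e-05). It was not called between KD and control (log2 change -0.21 ± 0.153, edgeR adjusted p = 0.277) or between FL and delta45 (log2 change -0.13 ± 0.152, edgeR adjusted p = 0.504). Against control, delta45 was 2.19-fold and FL 2-fold higher for Med12 (edgeR adjusted p = 3.14e-05 and 0.000103).

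Med13, the subunit that links the kinase module to the core, had 137.2, 76.2 and 57.35 CPM in KD, 215.5, 181.6 and 178.4 CPM in delta45, 309.8, 192.2 and 189.4 CPM in FL, and 106.5, 93.48 and 144.7 CPM in control. KD replicate 1 and FL replicate 1 were the highest of their groups. The log2 change was 1.35 ± 0.288 in FL against KD (edgeR adjusted p = 0.00143) and 1.09 ± 0.286 in delta45 against KD (edgeR adjusted p = 0.00557). Against control Med13 was 2-fold higher in FL (edgeR adjusted p = 0.00859), a call that ended without FL replicate 1 (log2 change 0.73, edgeR adjusted p = 0.051). Med13 in delta45 against control had a log2 change of 0.74 ± 0.284 (edgeR adjusted p = 0.036). That call ended without delta45 replicate 1 or 2 or control replicate 1 or 2, the log2 change being 0.67, 0.80, 0.68 and 0.61 in that order. KD against control (log2 change -0.35 ± 0.285, edgeR adjusted p = 0.329) and FL against delta45 (0.26 ± 0.282, edgeR adjusted p = 0.456) were not called.

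Its paralog Med13l varied most in KD, at 223.6, 228.8 and 96.75 CPM, with 203.3, 196.1 and 193.5 CPM in delta45, 305.2, 230.2 and 201.3 CPM in FL and 147, 160.4 and 149.5 CPM in control. Its call higher in FL than in control (log2 change 0.69 ± 0.251, edgeR adjusted p = 0.0302) ended with library totals (edgeR adjusted p = 0.151) and without FL replicate 1 (log2 change 0.51, edgeR adjusted p = 0.133). It also ended without control replicate 1, 2 or 3, at log2 changes of 0.66, 0.73 and 0.73. As a share of Med13 plus Med13l reads, Med13l averaged 66.6 ± 7.31% in KD, 50.8 ± 1.99% in delta45, 51.9 ± 2.46% in FL and 57.3 ± 6.21% in control. Med12l by contrast made up at most 0.386% of Med12 plus Med12l reads, in KD replicate 1.

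Ccnc, which encodes cyclin C, had 22.73, 16.83 and 15.32 CPM in KD, 45.32, 36.74 and 35.12 CPM in delta45, 28.44, 28.6 and 34.07 CPM in FL, and 20.04, 21.66 and 35.91 CPM in control. The delta45 and FL libraries lay above all KD libraries, while control replicate 3 lay among the delta45 libraries. Ccnc was 2.13-fold higher in delta45 than in KD (log2 change 1.09 ± 0.218, edgeR adjusted p = 0.000923). The FL level was 1.66-fold higher than in KD (log2 change 0.73 ± 0.22, edgeR adjusted p = 0.0124), a call that ended with library totals (log2 change 0.45, edgeR adjusted p = 0.108) and without FL replicate 3 (0.64, edgeR adjusted p = 0.0522). Its call above control in delta45 (log2 change 0.58 ± 0.214, edgeR adjusted p = 0.0288) ended without delta45 replicate 1, control replicate 1 or control replicate 2, at 0.49, 0.43 and 0.47. For Ccnc, KD against control was -0.51 ± 0.22 (edgeR adjusted p = 0.0723). On GENCODE M21, Ccnc shares exon positions with Tstd3 on the opposite strand and Med13 with Brip1os, and reads of such pairs cannot be told apart without strand information.

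Med14, the backbone of the complex, was the member that separated the constructs most. It had 69.37, 43.96 and 37.21 CPM in KD, 140.2, 120.8 and 119.9 CPM in delta45, 67.92, 59.29 and 55.67 CPM in FL, and 101.1, 87.46 and 135.8 CPM in control. All KD and FL libraries lay below all delta45 and control libraries. KD was 2.15-fold lower than control (log2 change -1.11 ± 0.213, edgeR adjusted p = 0.000881). With LDB1Δ4/5, Med14 was 2.52-fold higher than in KD (log2 change 1.34 ± 0.213, edgeR adjusted p = 0.00018) and not called against control (log2 change 0.23 ± 0.208, edgeR adjusted p = 0.349). With full-length LDB1 it was not called against KD (log2 change 0.28 ± 0.213, edgeR adjusted p = 0.284). FL was 2.08-fold lower than delta45 (log2 change -1.06 ± 0.212, edgeR adjusted p = 0.000918) and 1.78-fold lower than control (log2 change -0.83 ± 0.212, edgeR adjusted p = 0.00439). The FL change from KD, which was not called, was -0.01 with library totals.

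**Figure D3:**
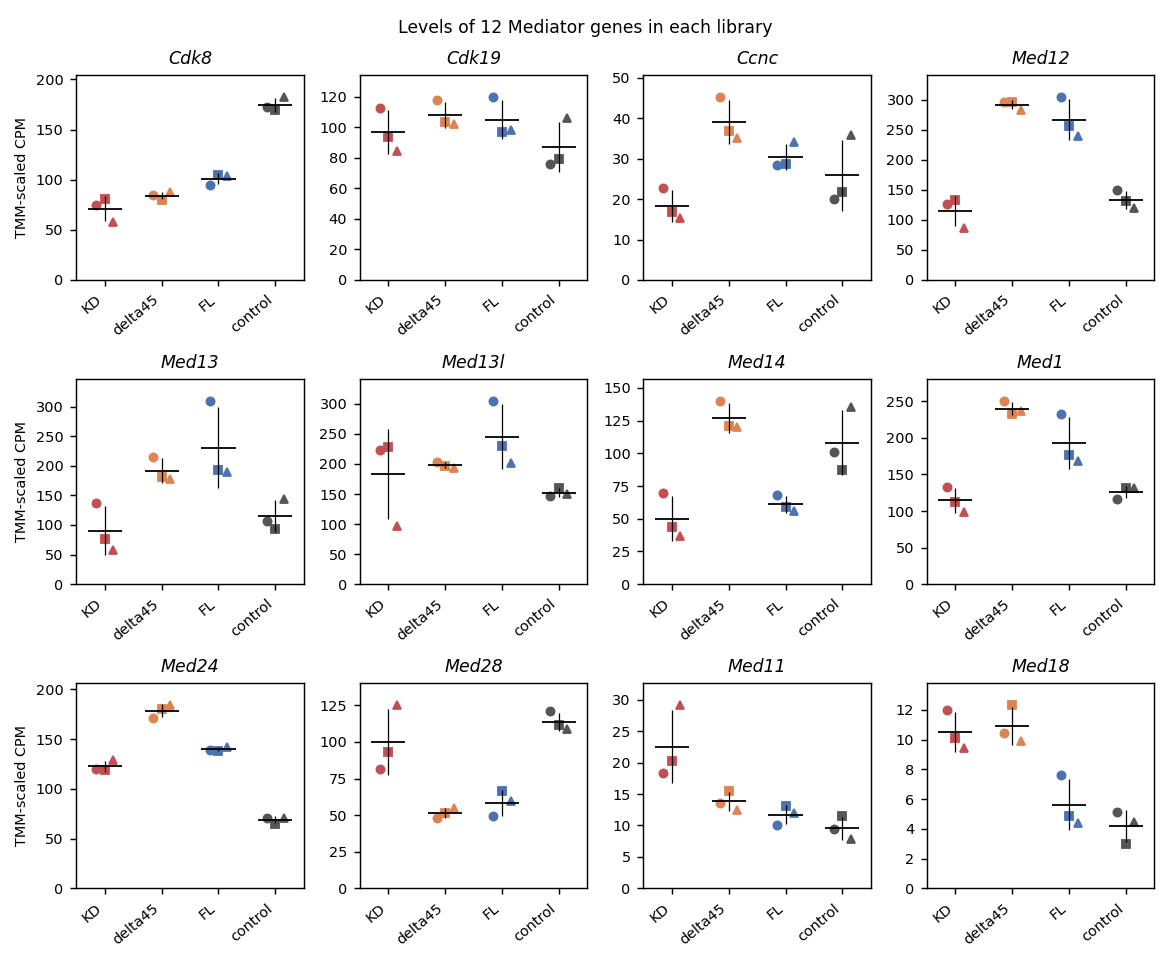
TMM-scaled CPM (y axis, from 0) of 12 Mediator genes in each library of the KD, delta45, FL and control groups. Symbols mark replicates 1 (circle), 2 (square) and 3 (triangle), horizontal lines the mean and vertical bars the SD. Cdk8 is highest in control, Med12 is highest in delta45 and FL, and Med14 is low in KD and FL.

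The promoters of Cdk8, Med14 and Med12 are shown because the results on the kinase module and the backbone turn on these genes. Each window runs from 250 bases before to 50 bases after the RefSeq start on GRCm38.p6, a build other than the authors', and capitals mark the motifs searched. Cdk8 is at chr5:146231000-146231299 on the plus strand, Med14 at chrX:12761924-12762223 on the minus strand and Med12 at chrX:101273841-101274140 on the plus strand.
Cdk8: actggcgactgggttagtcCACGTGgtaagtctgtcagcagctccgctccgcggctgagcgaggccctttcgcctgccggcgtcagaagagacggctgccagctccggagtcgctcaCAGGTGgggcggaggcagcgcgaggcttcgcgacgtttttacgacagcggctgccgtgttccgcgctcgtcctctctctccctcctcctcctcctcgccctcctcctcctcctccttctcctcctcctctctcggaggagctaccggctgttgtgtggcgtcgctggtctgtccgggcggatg
Med14: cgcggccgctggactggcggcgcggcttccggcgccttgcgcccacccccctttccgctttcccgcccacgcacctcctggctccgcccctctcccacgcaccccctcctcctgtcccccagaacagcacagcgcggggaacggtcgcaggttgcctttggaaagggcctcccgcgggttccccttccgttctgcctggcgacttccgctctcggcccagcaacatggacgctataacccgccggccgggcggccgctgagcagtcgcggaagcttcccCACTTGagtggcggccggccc
Med12: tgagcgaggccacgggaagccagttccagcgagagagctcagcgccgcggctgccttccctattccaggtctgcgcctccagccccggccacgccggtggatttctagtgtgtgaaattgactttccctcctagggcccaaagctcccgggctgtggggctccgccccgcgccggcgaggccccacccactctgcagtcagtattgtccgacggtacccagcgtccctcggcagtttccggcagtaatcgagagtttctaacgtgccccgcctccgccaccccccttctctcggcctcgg
The motifs were general forms of those bound by partners of LDB1, searched on both strands. The E-box was CANNTG with any base at each N, so a match need not be a form that these partners bind. GATA words were GATA preceded by A or T and followed by A or G. A GATA word and an E-box can overlap. Cdk8 held 2 E-boxes, Med14 held 1 and Med12 held none, and none of the windows held a GATA word. Of the 31 members 26 were matched to a window in the RefSeq table, with 29 windows in all. A GATA word was found in the windows of 6 members (Med11, Med13l, Med16, Med25, Med26 and Med27), or 20.7% of member windows, against 29.8% of all 32851 windows. An E-box was found in those of 12 members, or 48.3% of member windows, against 72.3% of all. A match is a description of the letters and not a binding site.

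Among the middle subunits, Med1, the contact of GATA1 and of nuclear receptors, had 133.3, 112.1 and 98.85 CPM in KD, 250.7, 233.2 and 236.4 CPM in delta45, 232.9, 177.2 and 168.2 CPM in FL, and 115.8, 131 and 131.2 CPM in control. Every delta45 and FL library lay above every KD and control library. Med1 was 2.09-fold higher in delta45 than in KD (log2 change 1.06 ± 0.139, edgeR adjusted p = 3.8e-05) and 1.68-fold higher in FL than in KD (log2 change 0.75 ± 0.139, edgeR adjusted p = 0.000525). It was 1.91-fold higher in delta45 and 1.53-fold higher in FL than in control. KD against control (log2 change -0.13 ± 0.139, edgeR adjusted p = 0.441) and FL against delta45 (-0.32 ± 0.138, edgeR adjusted p = 0.0687) were not called for Med1.

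Med19, a middle subunit near the hook that meets the polymerase, had 55.43, 57.97 and 64.27 CPM in KD, 72.88, 69.9 and 68.27 CPM in delta45, 93.66, 85.1 and 98.22 CPM in FL, and 39.97, 40.12 and 49.72 CPM in control. The ranges of the 4 groups did not overlap. FL was 2.13-fold above control (log2 change 1.09 ± 0.115, edgeR adjusted p = 3.91e-06) and 1.31-fold above delta45 (log2 change 0.39 ± 0.113, edgeR adjusted p = 0.01). The call against delta45 ended with library totals (log2 change 0.12, edgeR adjusted p = 0.374). Med19 shares exon positions with Tmx2 and Zdhhc5 on the opposite strand.

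Med7, part of the hinge of the middle module, averaged 14.8 ± 2.02 CPM in KD, 20.4 ± 3.27 CPM in delta45, 24.8 ± 2.72 CPM in FL and 16.2 ± 5.33 CPM in control. It was higher in FL than in KD (log2 change 0.74 ± 0.213, edgeR adjusted p = 0.00951), and not called with library totals (log2 change 0.47, edgeR adjusted p = 0.0845). Med9 went the other way, at 67.9 ± 8.23 CPM in KD, 51.3 ± 1.73 CPM in delta45, 46.3 ± 8.58 CPM in FL and 45.6 ± 2.57 CPM in control. It was 1.49-fold higher in KD than in control (edgeR adjusted p = 0.00383). Med26, which recruits elongation factors, averaged 55.7 ± 13.9 CPM in KD, 36.4 ± 4.6 CPM in delta45, 42.6 ± 6.07 CPM in FL and 52.7 ± 4.86 CPM in control. Its decrease in delta45 against KD (log2 change -0.61 ± 0.173, edgeR adjusted p = 0.00813) was not called without KD replicate 2 (-0.38, edgeR adjusted p = 0.0575) or without delta45 replicate 1 (-0.49, edgeR adjusted p = 0.053). Against control, Med26 was lower in delta45 (log2 change -0.53 ± 0.173, edgeR adjusted p = 0.0157). That call ended without delta45 replicate 1 (-0.41) or control replicate 2 (-0.47). Med4 was 1.42-fold lower in delta45 than in KD (edgeR adjusted p = 0.00194). Its call lower in delta45 than in control (log2 change -0.27 ± 0.112, edgeR adjusted p = 0.0465) ended with library totals, no low-count filter or a replicate block. With 1 library left out, it held only without KD replicate 1 or 3. Med21, the partner of MED7 in the hinge, and Med31 were called in no comparison and ranged from 31.91 to 70.33 CPM and from 14.79 to 27.67 CPM over the libraries.

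In the tail, Med24 was higher in KD, delta45 and FL than in control. Med24 had 120, 118.9 and 129.1 CPM in KD, 171.2, 180.6 and 184.3 CPM in delta45, 139.5, 138 and 142.2 CPM in FL, and 70.83, 64.69 and 70.99 CPM in control. The groups did not overlap, and control was lowest. Against control, Med24 was 1.78-fold higher in KD (log2 change 0.83 ± 0.0877, edgeR adjusted p = 8.38e-06), 2.59-fold higher in delta45 (1.38 ± 0.0883, edgeR adjusted p = 4.87e-08) and 2.03-fold higher in FL (1.02 ± 0.0879, edgeR adjusted p = 6.7e-07). FL was 1.28-fold lower than delta45 (log2 change -0.35 ± 0.0863, edgeR adjusted p = 0.00377).

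Med23, a tail contact of signal-dependent activators such as ELK1, averaged 70.7 ± 11.8 CPM in KD, 116 ± 1.99 CPM in delta45, 87.3 ± 7.93 CPM in FL and 53.8 ± 4.57 CPM in control. It was 2.14-fold higher in delta45 than in control (edgeR adjusted p = 7.81e-06) and 1.62-fold higher in FL than in control (log2 change 0.70 ± 0.128, edgeR adjusted p = 0.000427). Its decrease in FL against delta45 (log2 change -0.41 ± 0.126, edgeR adjusted p = 0.0155) was not called without delta45 replicate 1, 2 or 3, or without FL replicate 2 or 3, at -0.39 to -0.36. Med16 averaged 39.4 ± 6.41 CPM in KD, 26.1 ± 1.3 CPM in delta45, 25.6 ± 2.85 CPM in FL and 26.6 ± 2.46 CPM in control, and was 1.48-fold higher in KD than in control (edgeR adjusted p = 0.00513). Med15, a contact of SREBP factors, was 1.33-fold higher in delta45 than in control (log2 change 0.41 ± 0.103, edgeR adjusted p = 0.00326). Med25 averaged 80.2 ± 14.6 CPM in KD, 68.4 ± 15.2 CPM in delta45, 78.7 ± 8.36 CPM in FL and 93.2 ± 14.4 CPM in control. Its call lower in delta45 than in control (edgeR adjusted p = 0.046) ended with library totals (log2 change -0.39), without delta45 replicate 1 (-0.25) or 3 (-0.49), without FL replicate 2 (-0.45) or 3 (-0.45), and without control replicate 1 (-0.37) or 2 (-0.40).

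In the head, the small subunits Med6, Med11 and Med18 were higher in KD than in control. Med11, which pairs with MED22 at the head's base, had 18.27, 20.19 and 29.16 CPM in KD, 13.5, 15.53 and 12.49 CPM in delta45, 10.11, 13.02 and 12.06 CPM in FL, and 9.43, 11.43 and 7.816 CPM in control. All KD libraries lay above all others. KD was 2.37-fold above control (log2 change 1.25 ± 0.205, edgeR adjusted p = 0.000279), FL 1.92-fold below KD (-0.94 ± 0.203, edgeR adjusted p = 0.00152) and delta45 1.63-fold below KD (-0.70 ± 0.198, edgeR adjusted p = 0.00818).

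Med18, which with MED20 forms the movable jaw of the head, had 11.99, 10.1 and 9.456 CPM in KD, 10.45, 12.33 and 9.915 CPM in delta45, 7.605, 4.883 and 4.414 CPM in FL, and 5.144, 3.009 and 4.466 CPM in control. KD and delta45 overlapped each other and lay above FL and control. Med18 was 2.5-fold higher in KD than in control (log2 change 1.32 ± 0.244, edgeR adjusted p = 0.000658) and 2.58-fold higher in delta45 than in control (1.37 ± 0.242, edgeR adjusted p = 0.000264). FL was 1.95-fold lower than delta45 (log2 change -0.96 ± 0.237, edgeR adjusted p = 0.00389) and 1.89-fold lower than KD (-0.92 ± 0.24, edgeR adjusted p = 0.00548). FL against control was not called for Med18 (log2 change 0.40 ± 0.253, edgeR adjusted p = 0.183). Counts were few, 30 to 223 reads per library.

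The jaw partner Med20 differed from Med18. It averaged 72.1 ± 14.8 CPM in KD, 62.6 ± 0.682 CPM in delta45, 87 ± 3.81 CPM in FL and 93.2 ± 6.01 CPM in control. Med20 was 1.49-fold lower in delta45 than in control (log2 change -0.58 ± 0.13, edgeR adjusted p = 0.00172) and 1.39-fold higher in FL than in delta45 (0.48 ± 0.13, edgeR adjusted p = 0.0075), or 0.20 with library totals (edgeR adjusted p = 0.153). In KD against control it was called lower at a log2 change of -0.37 ± 0.13 (edgeR adjusted p = 0.0308), which was lost with only the 6 libraries compared, at -0.24 without KD replicate 1, at -0.35 without KD replicate 2, at -0.36 without control replicate 1 and at -0.33 without control replicate 2. Med6 averaged 41.1 ± 12.4 CPM in KD, 24.3 ± 1.77 CPM in delta45, 28.4 ± 3.12 CPM in FL and 23 ± 2.46 CPM in control, with KD replicate 3 the highest library at 55.42 CPM. The change in KD against control was 1.78-fold (log2 change 0.83 ± 0.183, edgeR adjusted p = 0.0022). Med17, the central subunit of the head, averaged 174 ± 26.1 CPM in KD, 196 ± 7.44 CPM in delta45, 218 ± 12.3 CPM in FL and 204 ± 7.59 CPM in control. Med22 averaged 136 ± 18.7 CPM in KD, 146 ± 2.11 CPM in delta45, 127 ± 4.56 CPM in FL and 157 ± 11.5 CPM in control, and Med8, called nowhere, 66.8 ± 18.3, 67.3 ± 1.17, 54.4 ± 4.17 and 57 ± 3.66 CPM in the same groups.

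At the border of head and tail lie 4 metazoan subunits. In FL against KD 3 of them were lower, where 31.7% of all genes were, and in delta45 against KD 2 were lower, where 30.7% of all genes were. Med28 had 81.64, 93.03 and 125.2 CPM in KD, 47.94, 51.31 and 54.57 CPM in delta45, 49.28, 66.38 and 59.32 CPM in FL, and 120.8, 111.5 and 109 CPM in control. All delta45 and FL libraries lay below all KD and control libraries. Med28 was 1.95-fold lower in delta45 than in KD (log2 change -0.96 ± 0.154, edgeR adjusted p = 0.000182) and 1.71-fold lower in FL than in KD (-0.78 ± 0.154, edgeR adjusted p = 0.000843). Against control, Med28 was 2.22-fold lower in delta45 (log2 change -1.15 ± 0.154, edgeR adjusted p = 2.73e-05) and 1.95-fold lower in FL (-0.96 ± 0.154, edgeR adjusted p = 0.000147). It was not called between KD and control (log2 change -0.19 ± 0.152, edgeR adjusted p = 0.326) or between FL and delta45 (0.19 ± 0.154, edgeR adjusted p = 0.331).

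Med30 had 56.75, 52.97 and 65.84 CPM in KD, 38.34, 40.25 and 39.43 CPM in delta45, 22.29, 27.9 and 29.72 CPM in FL, and 47.58, 39.92 and 40.73 CPM in control. FL was lowest and KD highest, with no overlap between them and the others. FL was 2.19-fold lower than KD (log2 change -1.13 ± 0.132, edgeR adjusted p = 1.19e-05) and 1.47-fold lower than delta45 (-0.56 ± 0.131, edgeR adjusted p = 0.0029). Med27 averaged 26.1 ± 4.24 CPM in KD, 22.6 ± 0.712 CPM in delta45, 17.7 ± 1.96 CPM in FL and 14.9 ± 0.747 CPM in control, 1.76-fold higher in KD than in control (edgeR adjusted p = 0.000388). Its call lower in FL than in delta45, at an edgeR adjusted p of 0.0481, ended with no low-count filter and with any of 10 libraries left out, at log2 changes from -0.35 to -0.27, and held without KD replicate 3 and without FL replicate 3. Med29 averaged 11.4 ± 2.53 CPM in KD, 8.83 ± 0.876 CPM in delta45, 8.79 ± 2.11 CPM in FL and 7.44 ± 0.333 CPM in control. Its call in KD against control (log2 change 0.61 ± 0.215, edgeR adjusted p = 0.0321) ended without KD replicate 2 (0.48) or 3 (0.53) and without control replicate 1 (0.57), 2 (0.63) or 3 (0.60).

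Summed over members, Mediator mRNA stood at 2247, 2270 and 2198 CPM in KD, 2793, 2744 and 2723 CPM in delta45, 2860, 2648 and 2588 CPM in FL, and 2274, 2254 and 2337 CPM in control. The delta45 and FL libraries lay above all KD and control libraries on this TMM scale. With library totals, tried on the sums after seeing the data, they were 2202 to 2500 CPM in KD, 2907 to 2933 CPM in delta45, 2269 to 2488 CPM in FL and 2308 to 2383 CPM in control, so that FL overlapped KD and control. The kinase module sum was 574.9 ± 157 CPM in KD, 912.1 ± 44.4 CPM in delta45, 979.5 ± 161 CPM in FL and 688.2 ± 43.8 CPM in control. Its FL and KD libraries did not overlap with TMM, but with library totals the lowest FL library had 758.7 CPM and the highest KD library 775.4 CPM. The border sum ran the other way, at 196 ± 34 CPM in KD, 122.1 ± 4.09 CPM in delta45, 111.4 ± 15.5 CPM in FL and 178.8 ± 10.7 CPM in control. Head sums were 523 ± 92.1 CPM in KD, 520.9 ± 6.9 CPM in delta45, 531.5 ± 14.8 CPM in FL and 547.7 ± 22.1 CPM in control. These sums weight long and abundant transcripts more and were not tested.

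**Figure D4:**
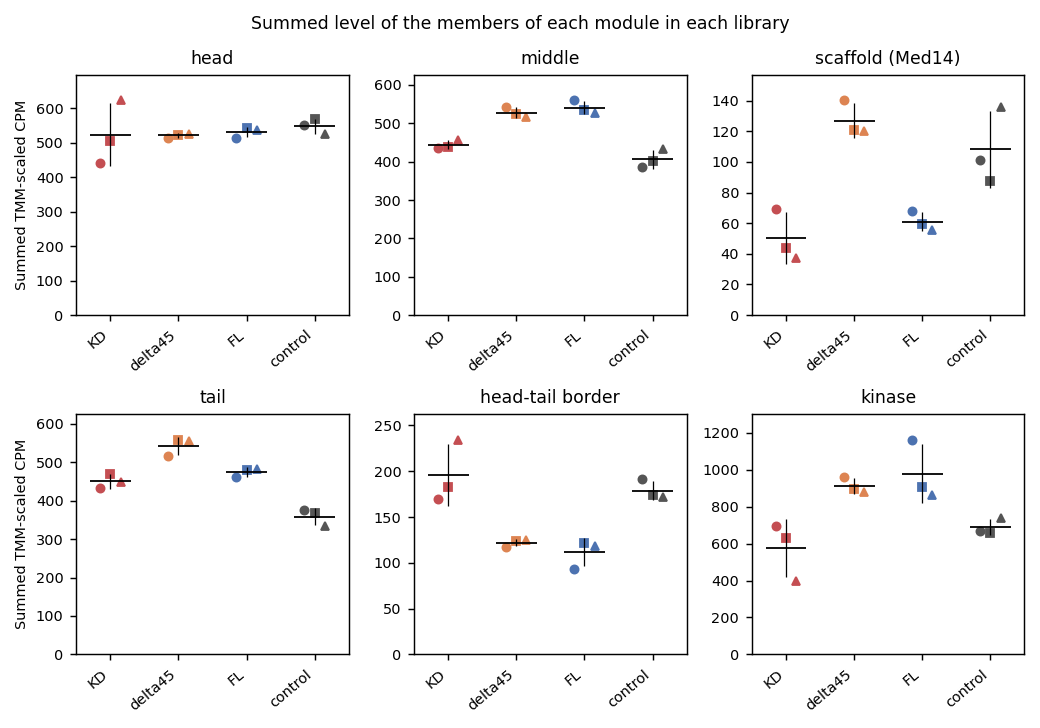
Summed TMM-scaled CPM (y axis, from 0) of the members of each module in each library of the KD, delta45, FL and control groups. Symbols mark replicates 1 (circle), 2 (square) and 3 (triangle), lines the mean and bars the SD. Kinase sums reach 1164 CPM in FL replicate 1 and 398.3 CPM in KD replicate 3.

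Per kilobase of merged exons, Med17 was the most abundant member in delta45, FL and control, at 46.3, 51.4 and 48.2 CPM per kb, and Med30 in KD, at 49.4 CPM per kb. Med18 was the least abundant in delta45, FL and control, at 5.46, 2.82 and 2.11 CPM per kb, and Ccnc in KD, at 3.58 CPM per kb. Of the 30 neighbouring pairs in this order, 1 did not overlap between libraries in KD, 7 in delta45, 4 in FL and 4 in control, so most neighbours were not separated. Med17 lay above the next gene in every library of delta45, FL and control. Med30 overlapped Med17 in KD, and Med18 overlapped Med16 in delta45. Med12 was at 37.9 CPM per kb in delta45 and 34.7 in FL, close to the top of the order, against 15 in KD and 17.3 in control.

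Among the members, merged exon length, taken over all annotated transcripts of a gene, moved with the changes that involve KD. It can exceed the length of any single transcript. Over the 31 members, Spearman's rho between merged exon length and log2 change was -0.60 in KD against control, 0.60 in FL against KD and 0.62 in delta45 against KD, against 0.04 in FL against delta45. Over the 12490 tested genes with a length, rho was -0.10, 0.21, 0.27 and -0.06 in the same comparisons. For FL and delta45 against control, rho was 0.08 and 0.12 over members and 0.13 and 0.16 over all genes. Over all genes the relation was thus not confined to comparisons with KD. In KD against control the median log2 change was -0.20 over the 16 members of 4230 bases or more and 0.45 over the 15 shorter ones. In delta45 against KD the medians were 0.21 and -0.32 for the same classes. The KD libraries differed in the same way: between KD replicates 3 and 1, rho of length with the log2 ratio was -0.65 over members and -0.39 over all genes. Of the 3 KD libraries, replicate 3 was the lowest for 9 of the 16 long members, such as Med12 and Med13, and the highest for 5, such as Med28 and Med15. It was the lowest for 2 of the 15 short members, Med7 and Med18, and the highest for 10, such as Med6 and Med11. In FL, rho was -0.52 over members for replicate 2 against 1 and for replicate 3 against 1. These are descriptions across genes of shared libraries, chosen after the values were seen, and the part of length in the results was not tested.

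**Figure D5:**
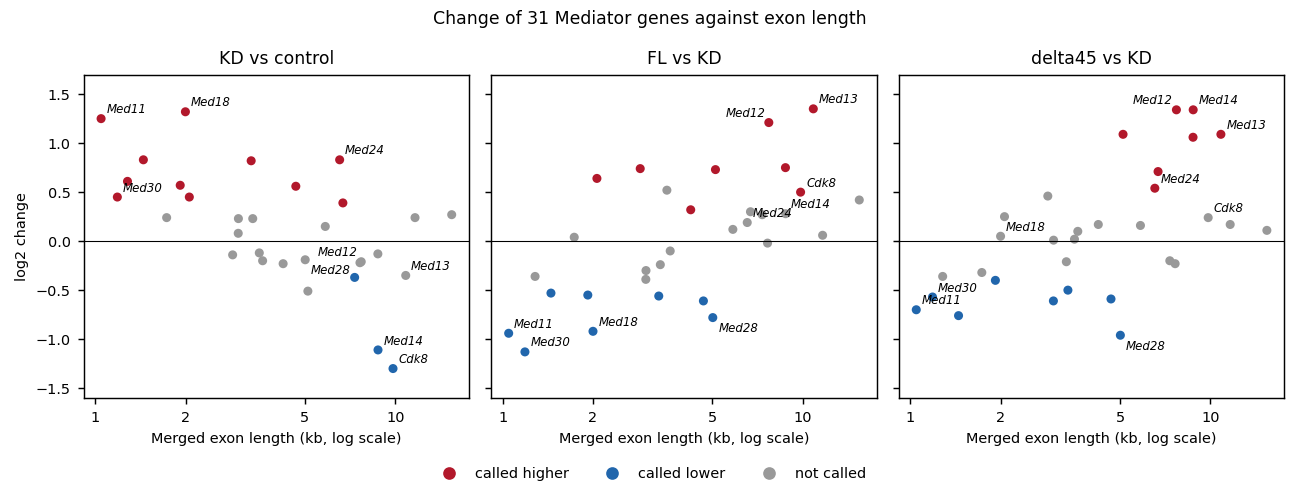
Log2 change (y axis) of the 31 Mediator genes against merged exon length in kb (x axis, log scale) in KD against control, FL against KD and delta45 against KD. Red points were called higher, blue lower and grey not called. Med11 and Med18 lie high and Cdk8 and Med14 low in KD against control, while Med12 and Med13 lie high in FL and delta45 against KD.

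Other genes of the transcription machinery are given by their counts. In KD against control 7 of 13 polymerase II genes, listed by symbol from Polr2a to Polr2m, were higher and 0 lower. That is 53.8% called against 49.7% of all genes. Polr2a, the catalytic subunit, led them with 652 ± 151 CPM in KD against 151 ± 3.61 CPM for control cells, 4.31-fold higher (edgeR adjusted p = 6.23e-07), and Polr2b was 1.91-fold higher. Polr2a was also 7.46-fold above control in delta45, at 1130 ± 42.6 CPM (edgeR adjusted p = 1.92e-08). In FL it was 5.81-fold above control, at 879 ± 133 CPM (edgeR adjusted p = 4.81e-08). Polr2b was 2.04-fold and 1.76-fold above control in delta45 and FL. Every library of KD, delta45 and FL lay above every control library for both genes. Of 18 general transcription factor genes (44.4% called in KD against control) 6 were higher, such as Gtf2h3 at 1.82-fold, and 2 lower, Ercc2 at 1.64-fold and Gtf2a2 at 1.51-fold. Among 13 TFIID genes (38.5% called) 5 were higher, or 3 with RLE scaling, and 0 lower. Of 16 tested Mediator-linked cofactors (12.5% called) 1 was higher, the acetyltransferase gene Crebbp at 1.98-fold, and 1 lower, Eaf1 at 1.21-fold, or 0 lower with library totals.

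In FL against KD 9 of the 16 cofactors were higher and 2 lower, where 26.3% of all genes were higher and 31.7% lower. In delta45 against KD, which shares the KD libraries, 10 were higher and 1 lower, where 29.2% of all genes were higher and 30.7% lower. The difference between the cofactors and other genes was not tested. Nipbl, the cohesin loader that binds Mediator, averaged 528 ± 64.5 CPM in delta45 and 644 ± 105 CPM in FL, against 258 ± 76.8 CPM in KD, 2.05-fold and 2.5-fold higher (edgeR adjusted p = 0.000745 and 0.000115). The acetyltransferase gene Ep300 was 2.15-fold higher in FL than in KD, and the elongation factor gene Aff4 1.95-fold higher in delta45 than in KD. In KD replicates 1, 2 and 3 Nipbl had 333.9, 258.6 and 180.3 CPM. Ep300 had 244.4, 251.2 and 123.1 CPM there, and Aff4 267.4, 200.6 and 106.6 CPM. The lower cofactors in FL against KD were the cohesin genes Smc1a, 1.52-fold, and Smc3, 1.49-fold. In delta45 against KD the lower one was Smc3, 1.33-fold. Beside the same all-gene shares, 2 of the 13 listed polymerase genes, Polr2a and Polr2m, were higher and 7 lower in FL against KD (0 higher with library totals). Polr2f was 1.98-fold and Polr2h 1.85-fold lower there. In delta45 against KD 1 was higher and 6 lower, with Polr2j 3.17-fold and Polr2g 2.42-fold lower. In FL against KD 7 general factors were higher and 2 lower, or 2 and 6 with library totals. Between the constructs, the cohesin gene Smc1a was 1.96-fold lower and Gtf2e2 2.53-fold higher in FL than in delta45 (edgeR adjusted p = 2.22e-06 and 5.45e-06).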

How the data were processed

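The measurement was RNA-seq of polyadenylated RNA from unstranded TruSeq V2 libraries, per the labels' protocols. The deposited values are raw counts per Ensembl gene. Per the submitters' processing notes, cutadapt 1.1, TopHat 1.4.1, HTSeq 0.5.3p9, DESeq 1.10.1 and build mm9 were used, with settings and annotation not given in the sources used here. Closing rows that name no gene were left out of library sizes. Multiply aligned reads were 38.7 to 53.3% of those tallied (38.7 to 39.2% in delta45 and 50.6 to 53.3% in control), those in no gene 2.12 to 6.13% and the ambiguous 1.33 to 1.81%. Such losses lower genes with close copies.

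A supplied table gave symbols for 32919 identifiers. Genes were kept by filterByExpr, scaled by TMM and fitted over all 12 libraries with edgeR 4.0.16 in R 4.3.3, with 4 group means and 6 comparisons. The SE is the absolute log2 change over the root of the F statistic. Replicates all differed by more than sampling noise (lowest chi-square per degree of freedom 2.191). The fit was tested on simulated data, but the settings and outcome are not given here, so no result rests on it. Exon lengths and overlaps came from GENCODE M21 on GRCm38, a build other than the authors'. The members, gene lists and tests were chosen with earlier results of these data known. Named members were, per comparison, up to 6 called each way by size plus Cdk8, Cdk19, Ccnc, Med1, Med12, Med13 and Med14, with others described within their module. Of the other lists, called genes with at least 10 mean CPM were named, up to 2 each way. Alternatives were other scalings, filters and tests, DESeq2 1.42.0, a replicate block and leaving out each library.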

Additional observations from a re-analysis of the deposited data

How the results depend on the processing

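Over 86 changes of named members and 1720 recomputed values, 1610 kept direction and side of the threshold, 79 lost the call, 23 gained one and 8 changed sign, none of these 8 being called. With library totals in place of TMM, members called higher and lower numbered 4 and 13 in FL against KD and 0 and 13 in FL against delta45, and 8 were lower in FL against control. Of all genes 59.8, 55.9 and 58.2% were called there, in that order. The log2 changes that turned under library totals were -0.16 for Cdk19 and -0.01 for Med14 in FL against KD, and -0.01 for Cdk8 and -0.01 for Med13 in FL against delta45. RLE scaling gave 4 higher members in FL against delta45, DESeq2 gave 4 there and 5 lower in KD against control, and fitting only those 2 groups gave 7 higher and 10 lower in FL against delta45. The shares of all genes called were 53, 54.4, 51 and 68.7% in that order. Tested against a fold of 1.5, members called higher and lower were 2 and 1 in FL against KD, 4 and 1 in delta45 against KD, 0 and 1 in FL against delta45, 3 and 2 in FL against control and 5 and 2 in delta45 against control, and 3 were higher in KD against control. Fewer of all genes were called at that fold as well. The shares were 27.3, 27.3, 25.2, 29.9, 35.8 and 18.6% in the same order of comparisons. Leaving out 1 library at a time, lower members ranged from 2 to 6 in KD against control and from 3 to 6 in delta45 against control, and higher ones from 7 to 13 in FL against KD and from 2 to 7 in FL against delta45. The share of all genes called then ran from 42.2 to 55.9% in KD against control and 57.5 to 68.8% in delta45 against control. It ran from 49.2 to 60.8% in FL against KD and from 44.1 to 57.7% in FL against delta45. In FL against delta45, not called for either gene, Cdk19 ranged from -0.14 to 0.07 (0.07 without delta45 replicate 1, 0.02 and 0.01 without FL replicate 2 and 3) and Med13 from -0.00, without FL replicate 1, to 0.40. The causes were not tested.

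The replicate numbers were not shown to pair the libraries: 9 of 18 same-numbered pairs correlated over 0.1 (range -0.196 to 0.269), and 11 of 18 matched best with their own number. With the replicate block, higher and lower members were 11 and 3 in KD against control, 10 and 9 in FL against KD, 7 and 8 in delta45 against KD, 3 and 7 in FL against delta45, 10 and 6 in FL against control, and 11 and 5 in delta45 against control. Of all genes 51.4, 59.4, 61.1, 54, 60.9 and 65.5% were called with the block, in that order. Depth limits Med18, at 30 to 223 reads per library.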
